A study of Mus musculus with 11 samples.

Results

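Polycomb repressive complex 1 (PRC1) is followed here through 9 named subunits in mouse embryonic fibroblasts (MEFs) depleted of p53 or of the long noncoding RNA Pint. The 9 genes are the catalytic RING subunits Ring1 and Rnf2, the PCGF partners Bmi1 and Pcgf2, the chromodomain proteins Cbx2, Cbx6, Cbx7 and Cbx8, and the Polyhomeotic protein Phc1. A subunit was taken to be measured when a probe set of the array carried its symbol and no other. By this rule 8 of the 9 genes were measured, each by 1 probe set, out of 19937 genes measured the same way in the series. The only probe set of Cbx6 also carries the symbols Npcd and Nptxr, so no value is given for Cbx6. Every group was made from MEFs of C57BL/6 x 129/SvJ background whose p53 gene is p53 LSL/LSL, silenced by a removable stop cassette. To restore p53, all cultures received a Cre adenovirus at 5 infectious units per cell over 24 h. They were then transfected and 24 h later given 150 nM doxorubicin, a DNA-damaging drug, for 12 h. The transfected agents were p53 siRNA (3 arrays) with control siRNA as its reference (3 arrays), and Pint ASO (3 arrays) with control ASO as its reference (2 arrays). An ASO is an antisense oligonucleotide, here a gapmer that recruits RNase H, and the study's methods describe the Pint ASO of the array experiment as a pool of oligonucleotides. No group lacked the Cre virus or doxorubicin, so both agents and the restored p53 gene are shared by the controls. The fraction of cells in which Cre removed the cassette is not given in the sources used here, and neither are the ages of the embryos.

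PRC1 represses genes by placing a single ubiquitin on histone H2A and by compacting chromatin. Its ubiquitin ligase is a pair of RING proteins, Ring1 or Rnf2 (RING1B) together with 1 PCGF protein. In canonical PRC1 that pair also holds a Polyhomeotic subunit, which self-associates, and a CBX subunit, whose chromodomain reads the methyl mark that Polycomb repressive complex 2 (PRC2) sets on histone H3. In variant PRC1, Rybp or Yaf2 takes the place of the CBX subunit. In fibroblasts the complex is best known for holding down the Cdkn2a locus: MEFs without Bmi1 stop dividing early as this locus is released, and Cbx7 and Cbx8 extend the life span of fibroblasts through the same locus.

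The values are log2 intensities from RMA (robust multichip average), so a difference of 1 is a doubling. A probe set was called when its adjusted p was under 0.05 (limma, Benjamini-Hochberg over the 26038 probe sets tested). Array medians lay between 7.31 and 7.38, and the correlation of arrays within a group was 0.991 to 0.995. The Pint probe set (Lncpint) had log2 values of 8.60, 8.48 and 8.55 with Pint ASO, against 10.41 and 10.23 with control ASO, so 29.2% of its intensity was left (log2 change -1.78, SE 0.12, adjusted p = 2.94e-05). Trp53 is not analysed here, so the p53 knockdown was not checked on its own target. With p53 siRNA, Lncpint had log2 values of 9.13, 9.02 and 9.06, against 9.43, 9.88 and 9.53 with control siRNA (log2 change -0.54, SE 0.11, adjusted p = 0.00673). The control groups differed too: Lncpint was higher with control ASO than with control siRNA by 0.71 (SE 0.12, adjusted p = 0.0137). All 10 fibroblast markers (among them Col1a1, Vim and Pdgfrb) were over a log2 value of 6 in every array. Their mean log2 level was 12.71 to 12.74 with p53 siRNA and 12.42 to 12.45 with control siRNA, and it was 11.87 to 11.93 with Pint ASO and 12.33 to 12.34 with control ASO. Single markers of other cell types moved too. The macrophage marker Cd68 had a log2 change of -1.04 with p53 siRNA and -0.47 with Pint ASO, and the muscle marker Des had -0.87 with p53 siRNA and -0.35 with Pint ASO. The endothelial marker Kdr rose by 0.77 with Pint ASO, while Tek of the same list had -0.17 (adjusted p = 0.0311). Other members of these lists were mixed. The blood marker Cd14 had a log2 change of -0.51 with p53 siRNA (adjusted p = 0.00583) and -0.17 with Pint ASO, not called. With p53 siRNA, 2 of the 4 blood markers tested were thus called lower and 2 were not called. With Pint ASO the muscle list had 1 gene called higher and 1 lower, and the blood marker Itgam had 0.34, not called. The blood markers Ptprc and Adgre1 and the endothelial marker Emcn were not over 6 in any array. The part of these marker shifts in the values that follow was not tested. In whole-culture RNA, fewer cells of a type and less RNA per cell cannot be told apart.

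Depletion of p53 was followed by a call for 1 of the 8 measured subunits, Cbx2, which rose, and none fell. Of all probe sets tested, 16.9% were called in this comparison, 7.97% higher and 8.96% lower. Over the 8 subunits the median log2 change was 0.016 (range -0.12 to 0.26), beside 0.0053 over all probe sets tested. Depletion of Pint was followed by no call in either direction among the 8 subunits, against 19.1% of all probe sets tested (8.49% higher and 10.7% lower). The median log2 change of the subunits was then -0.038 (range -0.18 to 0.043), beside 0.0037 over all probe sets. Without adjustment, 2 of the 8 had p under 0.05 in each comparison (Cbx2 and Cbx7 with p53 siRNA, Ring1 and Cbx8 with Pint ASO). The share of all probe sets with an unadjusted p under 0.05 was not computed, so these counts have no reference. It is at least the called share, 16.9% with p53 siRNA and 19.1% with Pint ASO. With B (the log-odds of a change) over 3, the threshold of the study, used here without its limits on the fold change, 0 of the 8 were called in either comparison, against 3.92% of probe sets for p53 siRNA and 3.12% for Pint ASO. The 95% intervals were narrow: the bound farthest from 0 was 0.39 with p53 siRNA (Cbx7, a 1.31-fold change) and -0.35 with Pint ASO (Cbx8, a 1.27-fold change), so larger changes of these 8 probe sets lie outside the intervals.

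**Figure D1:**
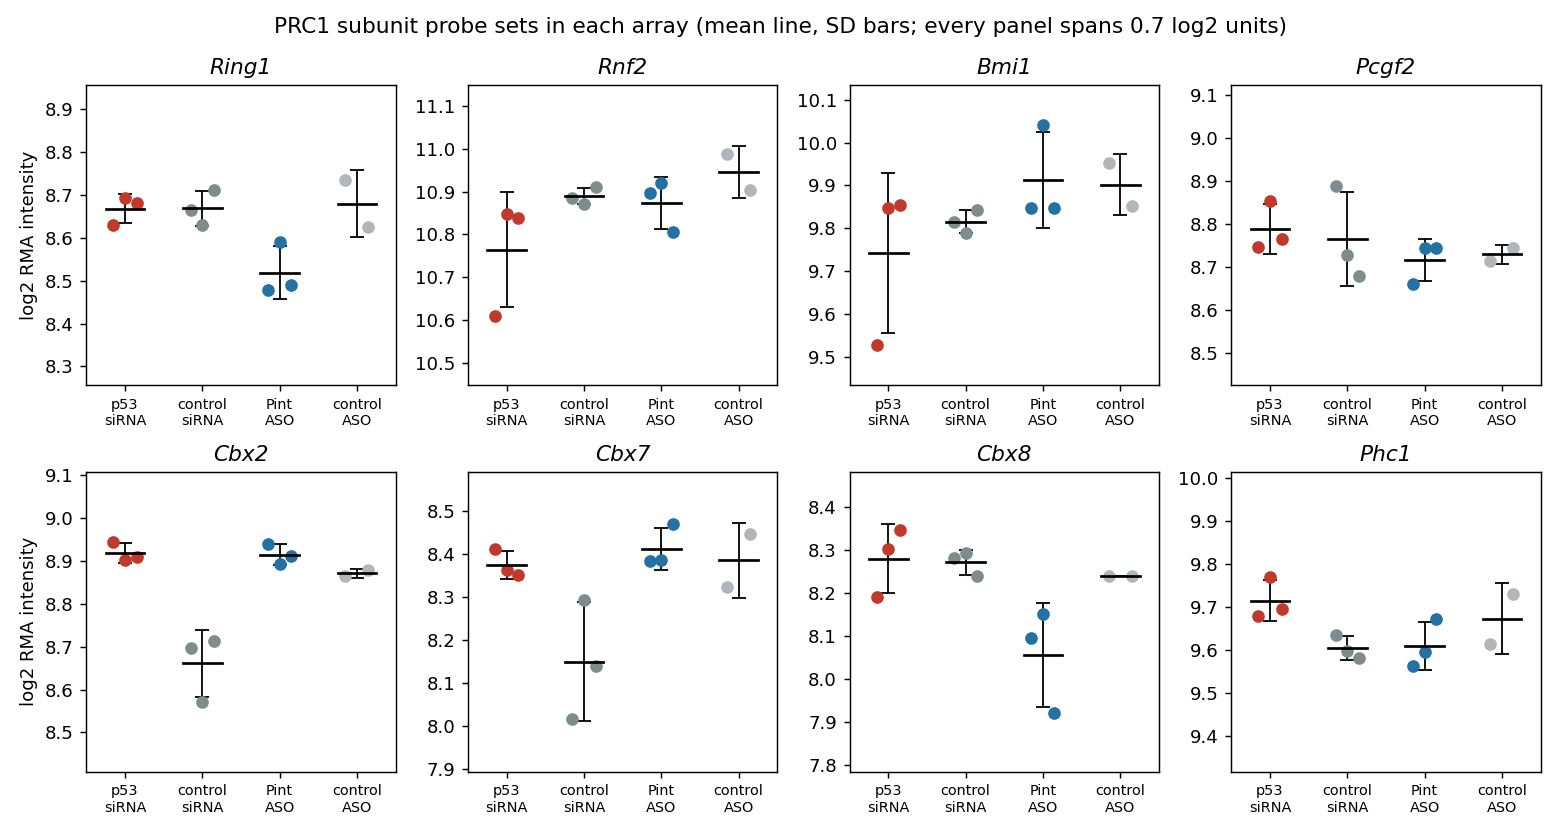
Log2 RMA intensity (vertical axis) of the 8 measured PRC1 subunits in each of the 11 arrays, by group (horizontal axis), with the group mean as a line and the SD as bars. Each panel spans 0.7 log2 units at its own level, and the 3 control siRNA arrays of Cbx2 (8.57 to 8.71) and Cbx7 (8.02 to 8.29) lie under every other array of the same panel.

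The RING subunits carry the ligase activity. Rnf2 had log2 values of 10.61, 10.85 and 10.84 with p53 siRNA, against 10.89, 10.87 and 10.91 with control siRNA. The groups did not overlap, but the first p53 siRNA array stood apart from the other two, and the change of -0.12 (SE 0.068, 95% interval -0.28 to 0.029) was not called (adjusted p = 0.279). Without that array the change was -0.047. With Pint ASO, Rnf2 had values of 10.90, 10.92 and 10.80, against 10.99 and 10.90 with control ASO, and these groups overlapped (change -0.073, SE 0.076, adjusted p = 0.594). Ring1, the paralogue of Rnf2, had log2 values of 8.63, 8.69 and 8.68 with p53 siRNA, against 8.66, 8.63 and 8.71 with control siRNA. These groups covered the same range, with a change of -0.00099 (SE 0.051, adjusted p = 0.994). With Pint ASO, Ring1 had values of 8.48, 8.59 and 8.49, against 8.74 and 8.62 with control ASO. All 3 Pint ASO arrays lay under both control ASO arrays, and also under all 6 siRNA arrays. The change was -0.16 (SE 0.057, 95% interval -0.29 to -0.032), with an unadjusted p of 0.0195 and an adjusted p of 0.0840, and so was not called. The order of the group means of Ring1 was Pint ASO, p53 siRNA, control siRNA and control ASO. Pint ASO had 8.52 ± 0.061 (SD, n = 3), and the others, which differed by less than the spread of their arrays, had 8.67 ± 0.034 (p53 siRNA, n = 3), 8.67 ± 0.042 (control siRNA, n = 3) and 8.68 ± 0.078 (control ASO, n = 2). The means of Rnf2 ran from 10.76 ± 0.14 (SD, n = 3) with p53 siRNA through 10.87 ± 0.060 with Pint ASO and 10.89 ± 0.019 with control siRNA to 10.95 ± 0.060 with control ASO, and no neighbours in that order were set apart by more than their spread.

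The PCGF subunits join a RING protein and set the type of complex. Bmi1 had log2 values of 9.53, 9.85 and 9.85 with p53 siRNA, against 9.82, 9.79 and 9.84 with control siRNA. The low array was again the first p53 siRNA array, while the other two lay above all control siRNA arrays. The change was -0.073 (SE 0.092, adjusted p = 0.665), and without that array it turned to 0.035. With Pint ASO, Bmi1 had 9.85, 10.04 and 9.85, against 9.95 and 9.85 with control ASO (change 0.010, SE 0.10, adjusted p = 0.963). Its group means were 9.74 ± 0.19 (p53 siRNA), 9.82 ± 0.026 (control siRNA), 9.91 ± 0.11 (Pint ASO) and 9.90 ± 0.071 (control ASO). From low to high the order was p53 siRNA, control siRNA, control ASO and Pint ASO. Neighbours in that order overlapped within their SD, Pint ASO and control ASO being closest. The single arrays of control siRNA and control ASO did not overlap. Pcgf2 (Mel-18), the closest relative of Bmi1, had log2 values of 8.75, 8.85 and 8.77 with p53 siRNA, against 8.89, 8.73 and 8.68 with control siRNA. The control siRNA arrays spread over a wider range than the p53 siRNA arrays, and the change was 0.023 (SE 0.062, adjusted p = 0.849). With Pint ASO, Pcgf2 had 8.66, 8.74 and 8.74, against 8.71 and 8.74 with control ASO (change -0.013, SE 0.069, adjusted p = 0.930). Its 4 group means lay within 0.072 of each other, the smallest distance among the 8 subunits, and under the SD of 0.11 in the control siRNA group.

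Like some other pairs of subunits, Rnf2 and Bmi1 deviated together within groups. After the group means were removed, the correlation of their values was 0.924 over the 11 arrays, the highest of the 28 pairs of subunits (median 0.0087, lowest -0.59 for Cbx2 with Cbx7). In the first p53 siRNA array both were low, Rnf2 by -0.16 and Bmi1 by -0.22 from the group mean, and without this array the correlation was 0.734 over 10 arrays. The pair was picked after its value was seen, the points share the array and its normalization, and no test is given. Ring1 and Bmi1 had a correlation of 0.763 over 11 arrays, and 0.917 without the first p53 siRNA array. Ring1 and Rnf2 had 0.644, and 0.752 without it, so both of these pairs then exceeded Rnf2 with Bmi1. Cbx8 had 0.741 with Rnf2 and 0.693 with Bmi1 over 11 arrays.

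**Figure D2:**
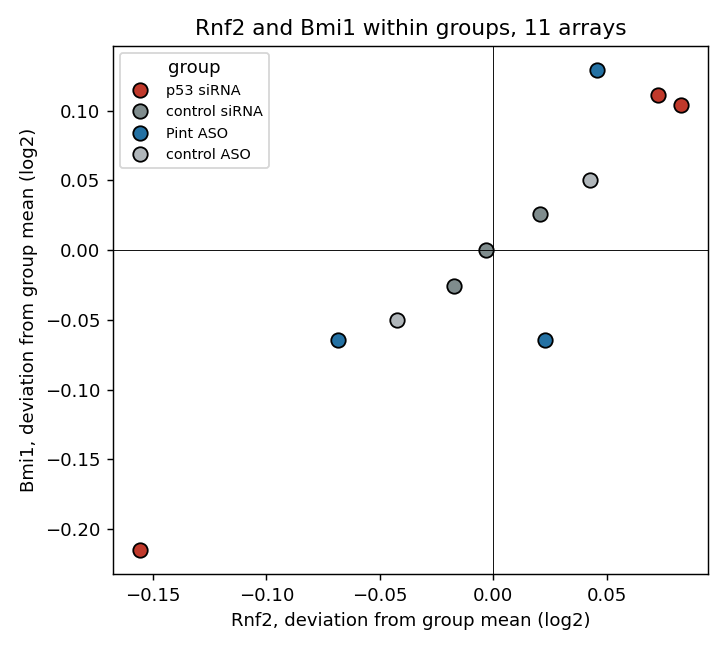
Deviation of Bmi1 (vertical axis, log2) against deviation of Rnf2 (horizontal axis, log2) from their group means, 1 point per array, coloured by group. The first p53 siRNA array, at -0.16 and -0.22, is the lowest on both axes, and the other 10 arrays alone have a correlation of 0.734.

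The CBX subunits read the PRC2 mark, and Cbx2, which can also compact chromatin, was the subunit that passed the test. Cbx2 had log2 values of 8.95, 8.90 and 8.91 with p53 siRNA, against 8.70, 8.57 and 8.71 with control siRNA. The groups were set apart by more than their own spread, with means of 8.92 ± 0.023 for p53 siRNA and 8.66 ± 0.078 for control siRNA (SD, n = 3 each). Cbx2 rose by 0.26 with p53 siRNA (SE 0.048, 95% interval 0.15 to 0.36, adjusted p = 0.00474), a 1.20-fold difference. It was called without each of the 11 arrays in turn (change 0.21 to 0.28) and under 9 of 9 other settings. With Pint ASO, Cbx2 had values of 8.94, 8.89 and 8.91, against 8.86 and 8.88 with control ASO. All Pint ASO arrays lay above the control ASO arrays, but the change was 0.043 (SE 0.053, adjusted p = 0.655). The difference between the Pint and the p53 effect was -0.21 (SE 0.071, 95% interval -0.38 to -0.054, adjusted p = 0.0682), so a difference in response was not called. The control groups differed as well: control ASO arrays were higher in Cbx2 than control siRNA arrays by 0.21 (SE 0.053, adjusted p = 0.0627), not called, where 4.02% of all probe sets were. Across all groups, Cbx2 was 8.86 to 8.95 in the other 8 arrays and 8.57 to 8.71 in the 3 control siRNA arrays. Both statements rest on the same control siRNA arrays, and a low level in that group and a high level with p53 siRNA cannot be told apart within the siRNA comparison. The group means from high to low were 8.92 ± 0.023 (p53 siRNA), 8.91 ± 0.024 (Pint ASO), 8.87 ± 0.010 (control ASO, n = 2) and 8.66 ± 0.078 (control siRNA), of which the upper 2 differed by less than their spread. Among 16146 other genes, the 3 with the pattern most like that of Cbx2 over the 11 arrays were Slc2a6 (Pearson r = 0.969), Zbtb12 (0.961) and Sox12 (0.937).

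Cbx7, the CBX subunit best known for repressing the Cdkn2a locus, had log2 values of 8.41, 8.36 and 8.35 with p53 siRNA, against 8.02, 8.29 and 8.14 with control siRNA. The groups did not overlap, and the spread came mainly from control siRNA (means 8.38 ± 0.033 for p53 siRNA and 8.15 ± 0.14 for control siRNA, SD, n = 3 each). The change of 0.23 (SE 0.071, 95% interval 0.066 to 0.39) had an adjusted p of 0.0602, so it was not called. It was called without the second control siRNA array, where the change was 0.30 (adjusted p = 0.016), and after median centring of the arrays (0.25, adjusted p = 0.032). With Pint ASO, Cbx7 had 8.38, 8.39 and 8.47, against 8.32 and 8.45 with control ASO (change 0.027, SE 0.080, adjusted p = 0.868). As for Cbx2, the control siRNA arrays were the low ones: the other 8 arrays lay between 8.32 and 8.47, and control ASO exceeded control siRNA by 0.24 (SE 0.080, adjusted p = 0.148). The order of means from high to low was Pint ASO (8.41 ± 0.049), control ASO (8.39 ± 0.088), p53 siRNA and control siRNA, and the upper 3 differed by less than their spread. Cbx2 and Cbx7 shared this pattern between groups but not within them, where their deviations had a correlation of -0.59 over 11 arrays.

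Cbx8, whose protein belongs to canonical PRC1 and whose gene lies beside Cbx2, had log2 values of 8.19, 8.30 and 8.35 with p53 siRNA, against 8.28, 8.29 and 8.24 with control siRNA, overlapping groups with a change of 0.0088 (SE 0.066, adjusted p = 0.949). With Pint ASO, Cbx8 had values of 8.09, 8.15 and 7.92, against 8.24 in both control ASO arrays. The 3 Pint ASO arrays were the lowest of the 11. The change was -0.18 (SE 0.074, 95% interval -0.35 to -0.018), with an unadjusted p of 0.0334 and an adjusted p of 0.123, so it was not called. The group means were 8.06 ± 0.12 (Pint ASO), 8.24 (control ASO, n = 2, whose values were identical), 8.28 ± 0.080 (p53 siRNA) and 8.27 ± 0.028 (control siRNA). Pint ASO was the lowest, and the arrays of the upper 3 groups overlapped.

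Phc1, the Polyhomeotic subunit, had log2 values of 9.68, 9.77 and 9.70 with p53 siRNA, against 9.63, 9.60 and 9.58 with control siRNA. The groups did not overlap, but the change of 0.11 (SE 0.051, 95% interval -0.0039 to 0.23, adjusted p = 0.191) was not called. With Pint ASO it had 9.56, 9.60 and 9.67, against 9.61 and 9.73 with control ASO, a change of -0.063 (SE 0.057, adjusted p = 0.524). Its means were 9.71 ± 0.048 (p53 siRNA), 9.60 ± 0.028 (control siRNA), 9.61 ± 0.056 (Pint ASO) and 9.67 ± 0.083 (control ASO). Ranked, the order was p53 siRNA, control ASO, Pint ASO and control siRNA, and each neighbouring pair overlapped.

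**Figure D3:**
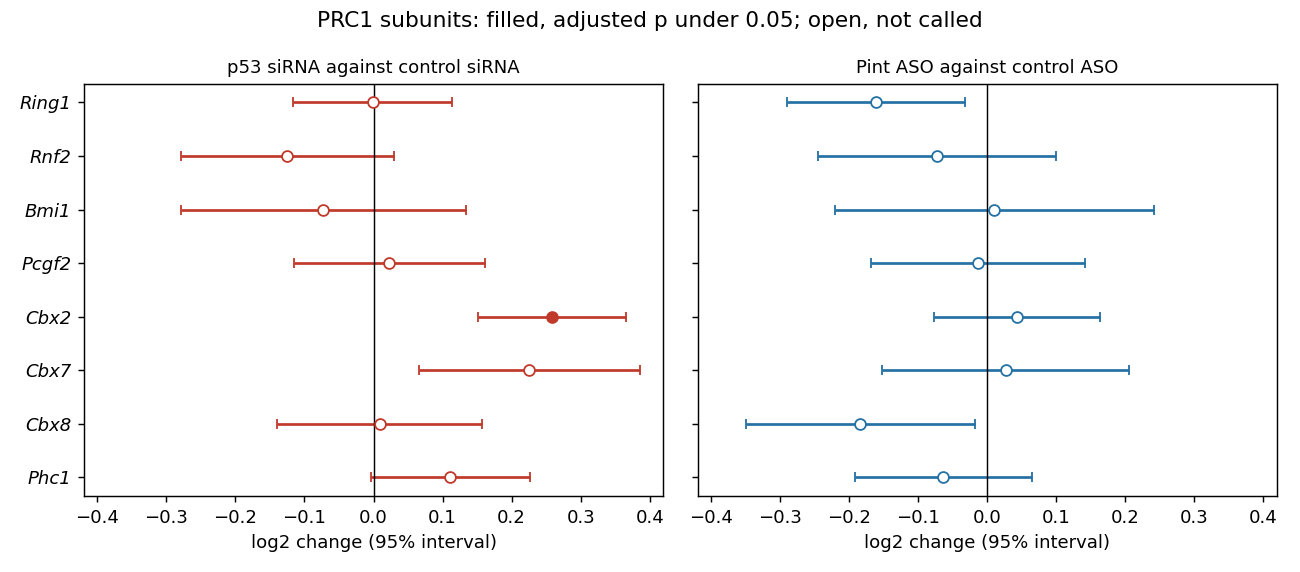
Log2 change (horizontal axis) of each PRC1 subunit with its 95% interval, for p53 siRNA against control siRNA (left) and Pint ASO against control ASO (right). Filled points have an adjusted p under 0.05, which holds for Cbx2 with p53 siRNA (0.26), and the farthest interval bounds are 0.39 (Cbx7, left) and -0.35 (Cbx8, right).

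Groups that did not overlap were found for 4 of the 8 subunits with p53 siRNA (Rnf2, Cbx2, Cbx7 and Phc1), against 35.7% of all probe sets. With Pint ASO, 3 of the 8 did not overlap (Ring1, Cbx2 and Cbx8), against 40.4%. The direct test of the Pint effect minus the p53 effect called 0 of the 8 subunits, against 18.5% of all probe sets (9.15% higher and 9.4% lower, and 3.61% with B over 3, where no subunit passed either), and 2 of the 8 had an unadjusted p under 0.05 (Cbx2, and Phc1 at a difference of -0.17, adjusted p = 0.165). Between the control groups, control ASO against control siRNA, 0 of the 8 subunits were called, against 2.29% of all probe sets higher and 1.73% lower, and 0 had B over 3, against 0.595%. Of the 8, 2 had an unadjusted p under 0.05 (Cbx2 and Cbx7), and 3 did not overlap (Cbx2, Cbx7 and Bmi1), against 32.6% of all probe sets. For the counts by unadjusted p, the share over all probe sets was not computed, so they are not read as changes of the subunits.

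In the RefSeq gene table (GRCm38.p6) Cbx2 and Cbx8 are neighbours on chromosome 11. Pcgf2 is also on chromosome 11, Cbx7 is on chromosome 15 between Apobec3 and Pdgfb, Ring1 is on chromosome 17, Rnf2 on 1, Bmi1 on 2 and Phc1 on 6. Of these neighbours, Cbx2 was called with p53 siRNA at a change of 0.26, and Cbx8 was not, at 0.0088. Promoters of RefSeq (GRCm38.p6), from 250 bases before to 50 after the start site, were held for 7 of the 8 measured subunits. Cbx2 had no entry. They were searched on both strands for sequences tied to p53 and to the cell cycle. The p53 half-site, a purine-rich and pyrimidine-rich motif bound by a p53 dimer, was found in 1 of 7 (Pcgf2, bases -194 to -185 from the start site, a match that reads on both strands), beside 8.36% of 32851 mouse promoters. The E2F sites TTTCCCGC and TTTGGCGC were found in 0 of 7 each, beside 1.07% and 0.514% of promoters. The cell cycle homology element was found as TTTGAA in 1 of 7 (Cbx7, -54 to -49, minus strand), beside 17.9%, and as TTCGAA in 0 of 7, beside 1.56%. The CCAAT box (CCAAT) was found in 2 of 7, at 1 position in Cbx7 (-190 to -186, plus strand) and 2 in Cbx8 (-220 to -216, minus strand, and -156 to -152, plus strand), beside 37.4%. Below are the promoter with the p53 half-site and that of Cbx7, the measured subunit with the next largest change with p53 siRNA after Cbx2. Capitals mark the matches, namely the p53 half-site in Pcgf2 (chr11:97699599-97699898, minus strand), and in Cbx7 (chr15:79932597-79932896, minus strand) the CCAAT box followed by the cell cycle homology element as its reverse complement.
Pcgf2: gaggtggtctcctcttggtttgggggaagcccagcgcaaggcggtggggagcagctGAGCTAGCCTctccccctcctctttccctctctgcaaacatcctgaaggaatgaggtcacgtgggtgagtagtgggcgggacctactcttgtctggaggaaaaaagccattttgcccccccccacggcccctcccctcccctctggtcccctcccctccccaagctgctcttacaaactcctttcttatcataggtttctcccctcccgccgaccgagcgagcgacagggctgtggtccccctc
Cbx7: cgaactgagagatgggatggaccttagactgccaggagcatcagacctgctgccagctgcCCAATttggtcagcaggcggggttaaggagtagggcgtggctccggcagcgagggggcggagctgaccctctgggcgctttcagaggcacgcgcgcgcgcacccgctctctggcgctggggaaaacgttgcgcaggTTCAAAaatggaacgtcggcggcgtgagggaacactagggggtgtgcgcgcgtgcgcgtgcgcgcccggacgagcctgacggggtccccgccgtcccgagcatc
Pcgf2, with the half-site, had a change of 0.023 with p53 siRNA, and Cbx7, without one in this window, had 0.23. A match is a description of these letters, and binding was not measured.

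Beside these subunits, 21 other PRC1 genes were measured, among them the other PCGF, Polyhomeotic and variant subunits. With p53 siRNA, 3 of the 21 rose, 4 fell and 14 were not called (median log2 change -0.028), beside 7.97% higher and 8.96% lower of all probe sets. Pcgf3, the PCGF subunit of a variant complex, had log2 values of 10.98, 10.94 and 10.93 with p53 siRNA, against 11.59, 11.58 and 11.58 with control siRNA. It fell by 0.64 (SE 0.048, adjusted p = 2.35e-05), to 64.4% of control. Sfmbt1, a protein with MBT repeats that associates with Polycomb proteins, had 8.29, 8.21 and 8.29 with p53 siRNA, against 8.996, 8.973 and 8.995 with control siRNA, and fell by 0.72 (SE 0.054, adjusted p = 2.23e-05). Both had groups set far apart relative to their spread. Scmh1, the homologue of fly Sex comb on midleg, fell by 0.27 (adjusted p = 0.00754), and Kdm2b, which brings a variant complex to CpG islands, fell by 0.17 (adjusted p = 0.0269). Pcgf5, a further variant PCGF subunit, rose by 0.40 (SE 0.10, adjusted p = 0.0252), Rybp by 0.35 (adjusted p = 0.0146) and Sfmbt2 by 0.24 (adjusted p = 0.0296). The count of 7 calls was 3 without the first control siRNA array or the third p53 siRNA array, and 4 without the second control siRNA array. Pcgf3, Sfmbt1 and Scmh1 were called in 11 of the 11 fits that left out an array, Rybp in 9, Pcgf5 and Kdm2b in 7 each and Sfmbt2 in 5. Under other settings Kdm2b was called in 5 of 9 and Sfmbt2 in 7 of 9. Fibroblast markers were higher with p53 siRNA for 6 of 10 genes, and their part in these changes was not tested.

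With Pint ASO, 6 of the 21 rose, 1 fell and 14 were not called (median log2 change 0.14), beside 8.49% higher and 10.7% lower of all probe sets. Pcgf6, the PCGF subunit of the complex that also holds Mga, had log2 values of 10.63, 10.90 and 10.74 with Pint ASO, against 10.32 and 10.16 with control ASO, and rose by 0.52 (SE 0.083, adjusted p = 0.00241). It was also higher with control ASO than with control siRNA, whose values were 9.83, 9.74 and 9.83, by 0.44 (adjusted p = 0.0219). That call between the controls did not hold when the first control ASO array or 1 of the 3 control siRNA arrays (whichever it was) was left out, or with a replicate block. Mga, its DNA-binding partner, rose by 0.44 (SE 0.068, adjusted p = 0.00195), and Usp7, a deubiquitinase found with PRC1, rose by 0.43 (SE 0.064, adjusted p = 0.00157). Sfmbt1, which fell with p53 siRNA, had 9.42, 9.46 and 9.46 with Pint ASO, against 9.13 and 8.94 with control ASO, and rose by 0.42 (SE 0.060, adjusted p = 0.0014). Rybp rose by 0.39 (adjusted p = 0.0137) and its paralogue Yaf2 by 0.22 (adjusted p = 0.0155), while Auts2, a partner of Pcgf3 and Pcgf5, fell by 0.19 (adjusted p = 0.0122). A second Rybp probe set was not called in either comparison (0.095 with p53 siRNA and 0.31 with Pint ASO), and a second Phc3 probe set was higher with Pint ASO by 0.25 (adjusted p = 0.00646) where the one used for the gene was not called. A second Sfmbt1 probe set fell by 0.65 with p53 siRNA (adjusted p = 0.00574) and was not called with Pint ASO (0.21). Among the fibroblast markers 8 of 10 were lower with Pint ASO, and their part in these changes was not tested.

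**Figure D4:**
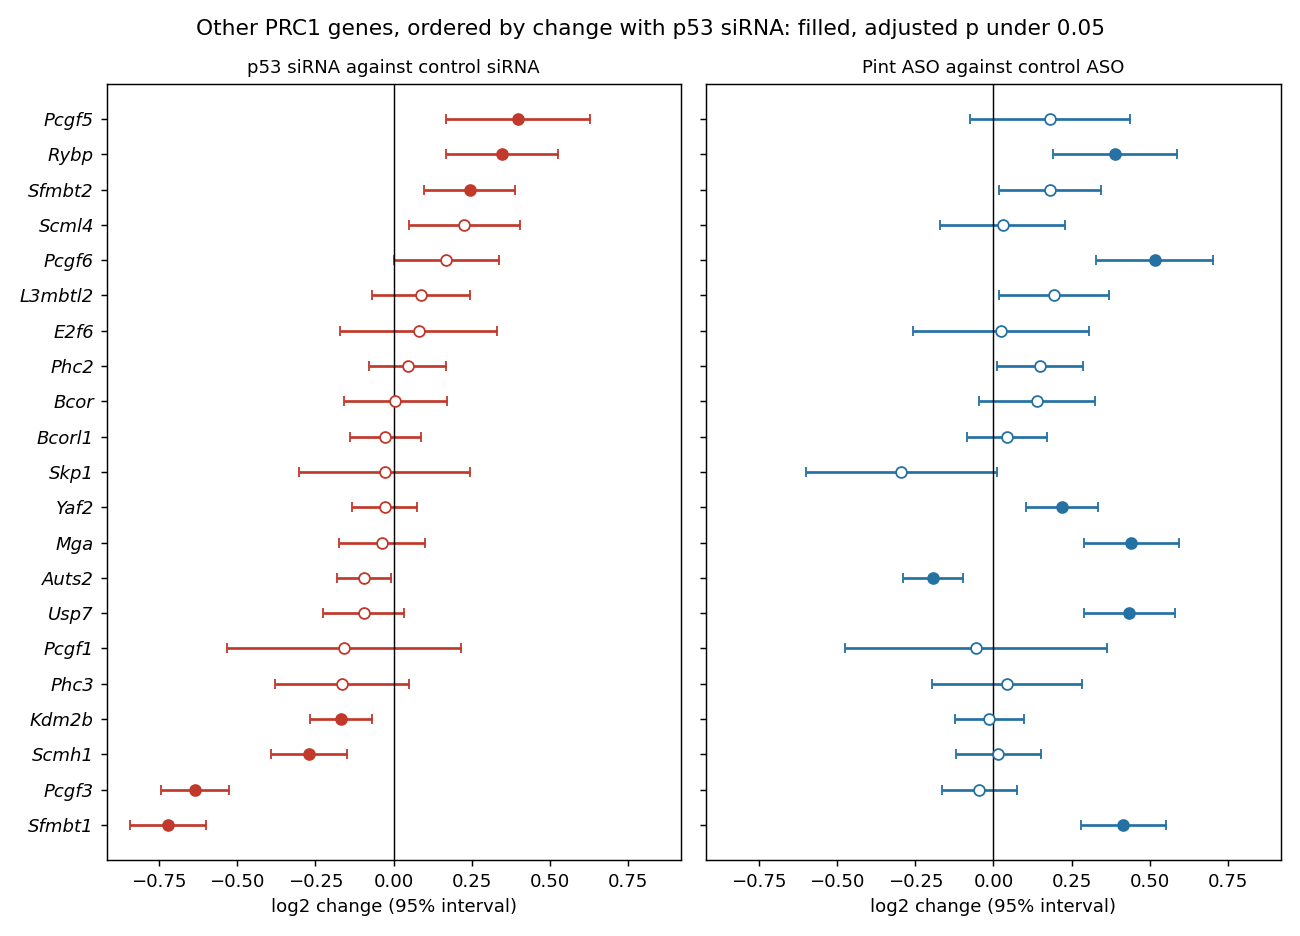
Log2 change with its 95% interval (horizontal axis) of the 21 other PRC1 genes measured, for p53 siRNA against control siRNA (left) and Pint ASO against control ASO (right), ordered by the change with p53 siRNA. Filled points have an adjusted p under 0.05 (7 genes on each side), and Sfmbt1 is at -0.72 on the left and 0.42 on the right.

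Opposing enzymes and the partner complex were set beside PRC1. Of 9 genes of H2A deubiquitination, 1 rose with p53 siRNA (Asxl3, by 0.40, adjusted p = 0.00263), and 4 rose with Pint ASO, while none fell in either comparison. All probe sets were called at 16.9% with p53 siRNA and 19.1% with Pint ASO. The 4 were Bap1, the enzyme (0.31, adjusted p = 0.000813), and its Asxl partners Asxl1 (0.42), Asxl2 (0.39) and Asxl3 (0.47). Bap1 was also higher with control ASO than with control siRNA by 0.22 (adjusted p = 0.0221). Of 11 PRC2 genes, 3 rose with p53 siRNA, namely the methyltransferase Ezh2 (0.41, adjusted p = 0.00132), Rbbp7 (0.37) and Phf19 (0.43), and 2 fell, Eed (-0.47) and Aebp2 (-0.33). A second Eed probe set had 0.14 and was not called, nor was a second Rbbp7 probe set (0.27, adjusted p = 0.0862). With Pint ASO 1 PRC2 gene rose, the core subunit Suz12 (0.32, adjusted p = 0.021). The accessory subunit Jarid2 fell by 0.23 (adjusted p = 0.0142), so that 2 of 11 PRC2 genes were called, a share near that of all probe sets.

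At the locus that PRC1 is best known to repress in fibroblasts, both genes were called in both comparisons. Of all probe sets tested, 16.9% were called with p53 siRNA and 19.1% with Pint ASO. Cdkn2a, which encodes p16Ink4a and p19Arf, had log2 values of 10.31, 10.26 and 10.38 with p53 siRNA, against 10.06, 10.13 and 10.15 with control siRNA, and rose by 0.20 (SE 0.050, adjusted p = 0.0214). With Pint ASO it had 9.51, 9.51 and 9.61, against 9.97 and 9.99 with control ASO, and fell by 0.43 (SE 0.056, adjusted p = 0.000769). Its neighbour Cdkn2b, which encodes p15Ink4b, had 10.76, 10.75 and 10.76 with p53 siRNA, against 10.90, 10.87 and 10.95 with control siRNA, and fell by 0.15 (SE 0.039, adjusted p = 0.0304). With Pint ASO it had 10.35, 10.38 and 10.36, against 10.80 and 10.79 with control ASO, and fell by 0.43 (SE 0.044, adjusted p = 0.00022). In none of these 4 comparisons did the groups overlap, as held for 35.7% of all probe sets with p53 siRNA and 40.4% with Pint ASO. The controls differed too. Control ASO against control siRNA was -0.14 for Cdkn2a (adjusted p = 0.246) and -0.12 for Cdkn2b (adjusted p = 0.196), neither called. These control groups did not overlap for either gene, as held for 32.6% of all probe sets. The transcripts p16Ink4a and p19Arf share exons and were not separated by the probe set used.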

How the data were processed

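Total RNA (300 ng) of the 11 samples was labelled and hybridized by the authors to Affymetrix whole-transcript arrays, and the deposited values are log2 intensities from RMA, which corrects background, normalizes between arrays and summarizes probe sets. Array number limits the precision. Of 34760 probe sets, 21640 carry 1 gene symbol in the platform annotation, 1321 several and 11799 none; no gene was named from the last 2 kinds. Symbols were checked through Entrez identifiers in RefSeq, where 21553 matched and 0 changed.

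Probe sets entered the test with a log2 value over 6 (64 linear) in at least 2 arrays of 1 or more groups, and all 8 subunits passed. The 4 groups, taken from the sample labels, were fitted together in limma 3.58.1 (R 4.3.3) with empirical Bayes, a fit first tested on simulated data. The contrasts were each knockdown against its control, the difference of the knockdown effects, and control ASO against control siRNA. Called means a Benjamini-Hochberg adjusted p under 0.05. All 9 subunits are named, and of the other lists the called genes. A gene with several probe sets is given by the one with the highest mean. The subunits and lists were chosen with earlier results of these data known. The labels do not say that replicates were separate cultures, so p-values measure the spread between these arrays, which may be technical. The labels tie no replicate number to a shared culture or day, so replicates were not paired. There were 9 alternative settings and 11 fits leaving out an array. Lists of markers of epithelium, blood, endothelium, neural, muscle and pluripotent cells had mean log2 levels of 5.93 to 7.95 in all arrays. In each of these 6 lists at least 1 of 6 genes was at or under 6 in every array. Single genes were higher, with means over the 11 arrays of 10.02 for Cd68, 9.51 for Acta1, 8.99 for Krt19 and 8.85 for Nes. In the epithelial, endothelial and muscle lists, 5 of 6 genes were over 6 in every array.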

Additional observations from a re-analysis of the deposited data

Results flagged for a closer look

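By the test of the Pint effect minus the p53 effect (limma, adjusted p under 0.05), none of the 8 measured subunits was called, and 6 of the 21 other PRC1 genes were, beside 18.5% of all probe sets. Sfmbt1 had the widest difference of these, 1.14 (SE 0.081, adjusted p = 2.37e-05), from 0.42 with Pint ASO and -0.72 with p53 siRNA. Pcgf3 differed by 0.59 (SE 0.072, adjusted p = 0.000464), with -0.046 for Pint ASO and -0.64 for p53 siRNA. Usp7 differed by 0.53 (adjusted p = 0.00242) and Mga by 0.478 (adjusted p = 0.00562), both of which had been called higher with Pint ASO. Scmh1 differed by 0.284 (adjusted p = 0.0379) and Yaf2 by 0.248 (adjusted p = 0.034). A second Phc3 probe set was called (0.291, adjusted p = 0.0131), where the one used for the gene was not (0.207). A second Sfmbt1 probe set was called too (0.865, adjusted p = 0.0105), and a second Rybp probe set was not (0.212). Cdkn2a differed by -0.639 (SE 0.076, adjusted p = 0.000391), from -0.43 with Pint ASO and 0.20 with p53 siRNA, and Cdkn2b by -0.28 (SE 0.059, adjusted p = 0.00899). Among H2A deubiquitination genes, the difference was 0.313 for Bap1 (adjusted p = 0.00371), 0.272 for Asxl1 (adjusted p = 0.0394) and 0.355 for Asxl2 (adjusted p = 0.00557). Among PRC2 genes it was 0.447 for Aebp2 (adjusted p = 0.00203) and -0.298 for Phf19 (adjusted p = 0.0407). A second Eed probe set was called lower (-0.398, adjusted p = 0.0449), where the one used for the gene had 0.528, not called. A second Rbbp7 probe set was not called (-0.244). Asxl1 and Phf19 passed narrowly. Genes of these 2 lists were not followed under the alternative settings, and neither were Cdkn2a, Cdkn2b and Lncpint. Lncpint, the target of the ASO, differed by -1.23. The mean fibroblast marker level was higher with p53 siRNA and lower with Pint ASO, and its part in these differences was not tested.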

How the results depend on the processing

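The count of called subunits with p53 siRNA was 2 with median centring (Cbx7 added, adjusted p = 0.032) and 1 to 2 when each array was left out. With Pint ASO, for the difference and between controls it was 0 under every setting run. With a replicate block by title number or description number the counts were 1, 0, 0 and 0 in the order of the contrasts, so the block changed no call of a subunit. Deviations of same-numbered arrays had correlations of -0.284 to -0.0371 in the siRNA arm, of -0.0463 and -0.42 in the ASO arm by title number, and of 0.42 and 0.375 there by description number. The 2 control ASO arrays deviate from their mean by equal and opposite amounts. The values of -0.42 and 0.42 are therefore the same number with its sign turned. These correlations cannot decide between the numberings. Changes near 0 that were not called turned sign. With p53 siRNA, Ring1 was 0.023 after median centring and 0.017 after a repeated quantile normalization. With Pint ASO, Pcgf2 was 0.018 after quantile normalization and 0.00062 with the title block, where Bmi1 was -0.0018. Leaving out 1 array gave, with p53 siRNA, -0.021 to 0.021 for Ring1, -0.020 to 0.085 for Pcgf2, -0.025 to 0.053 for Cbx8 and -0.13 to 0.035 for Bmi1, and with Pint ASO, -0.035 to 0.089 for Cbx7, -0.054 to 0.060 for Bmi1 and -0.028 to 0.015 for Pcgf2. The cause of these turns was not tested. The 7 calls among other PRC1 genes were 4 with p53 siRNA under the title block and 4 with Pint ASO when that arm was fitted alone. The higher Pcgf6 with control ASO than with control siRNA was not called with either block. The differences for Yaf2 and Scmh1 were called under 4 of 8 settings each, and in 4 and 3 of 11 fits leaving out an array. With 2 control ASO arrays, effects of Pint ASO have larger SEs (0.053 to 0.10) than those of p53 siRNA (0.048 to 0.092).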
